A study of Zea mays with 12 samples.

Results

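The RNA interference line PbfRNAi of maize was compared with wild type (WT) in endosperm, the storage tissue of the kernel, collected 16 days after pollination. The comparison rests on 6 of the 12 libraries of the series, 3 labelled PbfRNAi and 3 labelled WT, and on the genes that reached an FPKM of 1 or more in at least 3 of these 6 libraries. FPKM is the abundance of a transcript in fragments, set against its length and the mapped total of the library. Of 39448 gene models 15718 met that condition. The 25 zeins among them stayed in the fits and are not described. The other 6 libraries, 3 labelled PbfRNAi;o2 and 3 labelled o2, carry the same pair of Pbf states in the opaque2 mutant, and they share no library with the main comparison. All plants were grown in the field. The series' design text gives 3 biological replicates per genotype. The labels do not give the genetic background of the RNAi line, the number of transformation events, the promoter of the construct or the pooling of kernels. Effects of the construct and of any other difference between the lines cannot be told apart.

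PBF, the prolamin-box binding factor, is a Dof transcription factor of the endosperm. It binds a short promoter element upstream of storage protein genes and is known to act with the bZIP factor Opaque2 (O2) on the zein genes. Zeins are made on the rough endoplasmic reticulum (ER), where chaperones and protein disulfide isomerases fold them before they are packed into protein bodies. The endosperm also makes starch, other storage proteins and large amounts of auxin, and takes up sugars and amino acids through the basal endosperm transfer layer next to the mother plant. The comparison asks which transcripts beyond the zeins differ in a line in which the Pbf gene is targeted.

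The FPKM sum of a library was 502921 to 519817 in PbfRNAi and 430405 to 472141 in WT, and the read depth is unknown. Between 15292 and 15933 models stood at FPKM 1 or more in PbfRNAi, and between 14904 and 15059 in WT. The 10 most abundant models held 33.2% to 37.5% of the sum in PbfRNAi and 39.0% to 41.5% in WT. Across genes, replicates 2 and 3 correlated at r = 0.989 in PbfRNAi and 0.991 in WT, and replicate 1 with either of them at 0.953 to 0.961 in PbfRNAi and 0.958 to 0.959 in WT, so replicate 1 stood apart in both genotypes. Whether the 3 replicates are equally independent is not stated, and the p-values measure only the spread between these libraries. In the opaque2 background, PbfRNAi;o2 replicate 1 and o2 replicate 1 differed from their groups at single genes, so the counts that rest on these libraries are given with and without PbfRNAi;o2 replicate 1. Calls of single genes without o2 replicate 1 are not given. The zein gene gz27 stood at FPKM 6134, 7229 and 6699 in PbfRNAi and is listed at 0 in the 3 WT libraries. It stood at 13241, 13686 and 12457 in PbfRNAi;o2 and at 22675 and 23594 in o2 replicates 2 and 3, and is listed at 0 in o2 replicate 1. An exact 0 can be a failed estimate, so these values do not settle the identity of any library. Endosperm markers were present in all 6 libraries compared. The 11 starchy endosperm marker models, among them the starch genes sh1, sh2, wx1 and bt2, summed to FPKM 6806, 9256 and 9469 in PbfRNAi and 5948, 7844 and 7837 in WT.

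The targeted gene pbf1 (GRMZM2G146283) stood at FPKM 56.7, 44.1 and 39.1 in the PbfRNAi libraries, against 110.3, 102 and 97.6 in the WT libraries. Every PbfRNAi library lay below every WT library, and 45.1% of the WT mean remained. The log2 fold change on log2(FPKM + 1) was −1.15 ± 0.15 (± SE, as below; limma, Benjamini-Hochberg adjusted p = 0.002, and 0.00092 after scaling). A second model that matches the same reference gene, GRMZM2G146267, stood at 10.5, 13.9 and 11.7 in PbfRNAi and 12.6, 12.3 and 11.5 in WT, and did not pass (limma adjusted p = 0.94). The gene o2, for the bZIP partner, was also lower, at 97.3, 128 and 133 in PbfRNAi and 229.7, 195 and 189 in WT (log2 −0.78 ± 0.16, limma adjusted p = 0.012; scaled 0.0032).

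More genes were higher than lower in PbfRNAi. Since FPKM is a share of each library, both scales were used: the log2 fold change of the median gene was 0.17 as deposited and −0.01 after median-of-ratios scaling, which removed a shift of 0.18. A gene is said here to rise or fall only if it passed an adjusted p of 0.05 in limma on both scales in the same direction. By that rule 1471 genes (9.36% of those tested) rose and 725 (4.61%) fell, 1469 and 719 of them outside the zeins. As deposited alone, 2650 (16.9%) were higher and 725 (4.61%) lower, and scaled alone 1471 (9.36%) were higher and 1184 (7.53%) lower. Of the genes that passed on both scales, 795 rose and 304 fell at least 2-fold. Same-numbered replicates deviated together, which the shared split of replicate 1 can give by itself, so pairing of the other replicates by number was not shown. With the replicate number as a block 2412 genes rose and 1230 fell, with 1470 of the 1471 and 724 of the 725 among them. Leaving out 1 library lowered the counts to 867 and 434 without WT replicate 2, 923 and 445 without WT replicate 3, and to 474 falls without PbfRNAi replicate 2. As deposited, rises numbered 1537 without PbfRNAi replicate 3, 1300 without WT replicate 2 and 1336 without WT replicate 3. Scaled, falls numbered 684 and 774 without PbfRNAi replicates 2 and 3, and 640 and 672 without WT replicates 2 and 3. Of the tested genes 467 met the FPKM filter through PbfRNAi alone (1 or more in its 3 libraries and in no WT library) and 217 through WT alone, so a called difference in them is partly set by the filter. They held 351 of the rises and 196 of the falls, and the other 15034 genes held 1120 and 529. Called members of this kind are given beside their list's count. All percentages of list members below are to be read against 9.36% for rises and 4.61% for falls.

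Among ER chaperone genes that passed, most rose, and the falls lay among the protein disulfide isomerases. Of 18 tested models 7 rose (38.9%) and 3 fell (16.7%), and 9 rose as deposited alone. A PDIL1-4 model (GRMZM2G033829) and a PDIL5-1 model (GRMZM2G443655), both falls, met the filter through WT alone, and of the other 16 models 7 rose and 1 fell. The median log2 fold change was 0.46 as deposited and 0.26 scaled, against 0.17 and −0.01 over all tested genes. The BiP genes encode the ER Hsp70 that binds nascent secretory proteins. The gene bip1 (GRMZM2G114793) stood at FPKM 737, 356 and 389 in PbfRNAi, against 115, 82.8 and 80.6 in WT (log2 2.34 ± 0.29; limma adjusted p = 0.0015, scaled 0.0021). The gene bip2 (GRMZM2G415007) stood at 249, 122 and 131 in PbfRNAi, against 17, 17.8 and 16.2 in WT (log2 3.15 ± 0.26; adjusted p = 0.00024, scaled 0.00033). Neither pair of groups overlapped, and PbfRNAi replicate 1 was the highest library for both. The BiP genes are near-identical copies, so the division of reads between them is uncertain.

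The protein disulfide isomerase family, which forms and rearranges disulfide bonds, moved in both directions. PDIL1-1, the most abundant, stood at 1388, 884 and 1099 in PbfRNAi, against 478, 339 and 340.1 in WT. PDIL2-3 stood at 142, 74.8 and 79.3 in PbfRNAi, against 39, 19.7 and 18 in WT, and PDIL1-2 at 17.4, 12.5 and 15.3 against 1.64, 2.16 and 1.99. These rises were 2.91-fold, 3.86-fold and 7.82-fold as ratios of means (limma adjusted p = 0.0027, 0.0075 and 6.7e-05), with no overlap of the libraries. The lower-level PDIL1-5 rose too, at a mean of 4.13 ± 0.324 in PbfRNAi and 1.98 ± 0.0401 in WT (SD, n = 3 each). The falls were those of PDIL5-1 (GRMZM2G443655) and of both models of PDIL1-4. PDIL5-1 stood at 0.576, 0.262 and 0.453 in PbfRNAi, against 28.3, 24.6 and 26.4 in WT (log2 −4.27 ± 0.13; limma adjusted p = 6.1e-06). A second model of the same reference gene, GRMZM2G073628, stood at 80.4, 75.5 and 82.3 in PbfRNAi and 63.4, 68.9 and 74 in WT (adjusted p = 0.22), so the values near 0 were those of the first of these models. The PDIL1-4 model GRMZM2G033829 averaged 0.617 ± 0.118 in PbfRNAi and 5.67 ± 1.0 in WT, and GRMZM2G034143 averaged 7.72 ± 0.694 and 14.6 ± 1.5.

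The calreticulin gene crt2, for a lectin chaperone that holds glycoproteins in the ER, stood at 162, 74.6 and 77.6 in PbfRNAi and 44.1, 28.2 and 27.6 in WT (log2 1.56 ± 0.32; limma adjusted p = 0.014, scaled 0.024). Its groups did not overlap, but the call was lost without WT replicate 2 (adjusted p = 0.085) or WT replicate 3 (0.083). The other 6 rises and the 3 falls held with any 1 of the 6 libraries left out. None of the 3 tested genes of ER import and degradation passed on both scales in limma, against 1 as deposited, 1 with the replicate block and 1 at an unadjusted p under 0.05 on both scales.

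**Figure D1:**
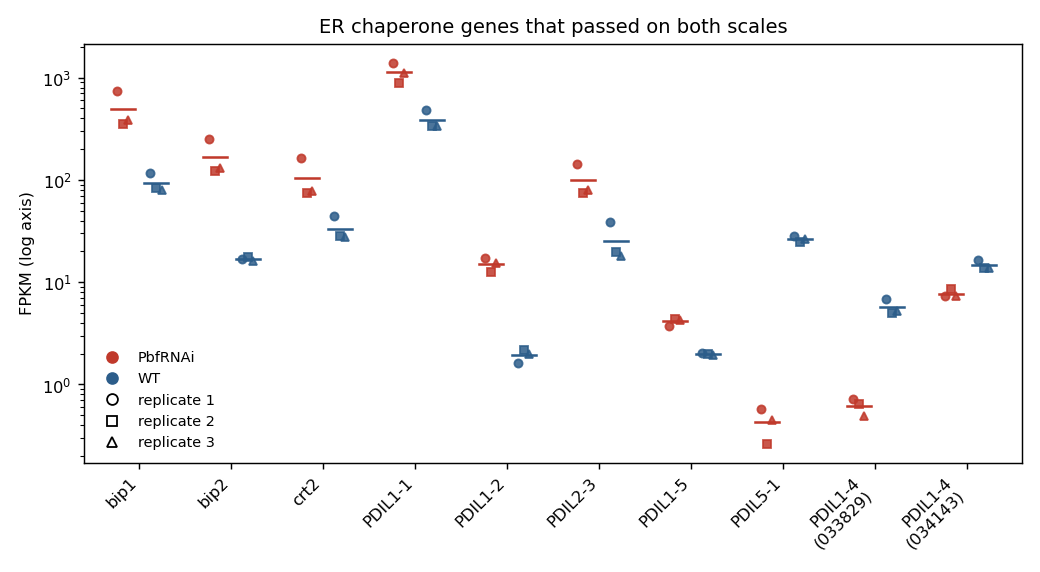
FPKM of the 10 ER chaperone models that passed on both scales (log axis), with 3 PbfRNAi libraries (red, left) and 3 WT libraries (blue, right) per gene; symbols mark replicates and bars the means. The 7 models on the left lie higher in PbfRNAi and the 3 on the right lower, and no pair of groups overlaps.

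Heat shock proteins, listed by gene symbol without regard to cell compartment, gave no such count. None of 15 heat shock protein genes passed on either scale in limma, against 1 at an unadjusted p under 0.05 on both scales, with a median log2 fold change of 0.05 as deposited. With the replicate block 2 rose and 3 fell. The heat shock factor gene Hsf01, of the family that activates such genes, fell, at 6.02, 6.58 and 6.98 in PbfRNAi, against 17.4, 14.5 and 16.4 in WT (log2 −1.18 ± 0.12; limma adjusted p = 0.00051). It was the 1 fall among 7 tested heat shock factors, in a list drawn up after the values were seen.

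Several regulators of the endosperm changed beside the targeted gene. The most abundant was floury3 (fl3, GRMZM2G006585), for a PLATZ-type protein that interacts with the RNA polymerase III machinery. It stood at FPKM 2339, 2589 and 2092 in PbfRNAi, against 443, 612 and 513 in WT. Every PbfRNAi library lay above every WT library (log2 2.17 ± 0.17; limma adjusted p = 0.00019, scaled 0.00048). In the opaque2 background fl3 was not called, at 6992, 5133 and 4497 in PbfRNAi;o2 and 1182, 4614 and 4156 in o2. Its log2 fold change there was 0.94 ± 0.51 (limma adjusted p = 0.25), and 0.76 without PbfRNAi;o2 replicate 1 (0.39). Within o2, replicate 1 stood far below replicates 2 and 3, and both of these changes include it. The change of fl3 without o2 replicate 1 is not given. The difference of the effects between the backgrounds did not pass (limma adjusted p = 0.23). The gene ohp1 (GRMZM2G016150), for a bZIP protein that forms heterodimers with O2, stood at 2.96, 9.72 and 9.43 in PbfRNAi and is listed at 0 in all 3 WT libraries. It met the filter through PbfRNAi alone. An exact 0 can be a failed estimate, so no fold is given. DOF36, another Dof factor, fell to 11.9, 13.7 and 15 in PbfRNAi, against 31.3, 25.6 and 26.5 in WT (log2 −0.99 ± 0.13; limma adjusted p = 0.0021). Of the 12 tested endosperm transcription factor models 2 rose and 2 fell, the rises being fl3 and ohp1 and the falls pbf1 and o2. The zinc-finger gene Nkd1, a regulator of aleurone fate, did not pass, with a mean of 63 ± 13.1 in PbfRNAi and 52.7 ± 4.81 in WT (adjusted p = 0.34).

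Outside the endosperm list, TCP7, of the TCP family of growth regulators, rose. It stood at 17.4, 16.9 and 19.1 in PbfRNAi, against 4.4, 2.06 and 1.91 in WT (log2 2.37 ± 0.23; limma adjusted p = 0.00053). MADS11, of the MADS-box family, fell to 4.51, 3.96 and 4.7 in PbfRNAi, against 11.4, 10.8 and 11.3 in WT (log2 −1.17 ± 0.11; adjusted p = 0.00038). Both genes were without overlap between the groups. Counted by family, in lists drawn up after the values were seen, 2 rose and 1 fell of 21 bZIP genes, 1 and 2 of 11 NAC genes, 2 and 1 of 21 MYB genes, 1 and 1 of 10 bHLH genes and 4 and 1 of 20 AP2 and EREB genes. In 8 WRKY genes 0 rose and 1 fell, in 9 homeobox genes 1 and 0, and in 10 MADS genes 0 and 1. Of these calls, 1 bZIP, 1 MYB and 1 AP2 and EREB rise lay in genes that met the filter through PbfRNAi alone, and the AP2 and EREB fall in one that met it through WT alone. With each library left out in turn, the calls that held were 1 of the 3 bZIP, 1 of the 3 MYB, 2 of the 3 NAC, none of the bHLH and 3 of the 5 AP2 and EREB genes, and the WRKY, homeobox and MADS calls. With the replicate block 2 bZIP, 4 NAC, 3 MYB and 2 bHLH genes fell, and 1 MADS gene rose. Of 29 SnRK and calcium-dependent kinase genes, likewise listed after the values were seen, 3 rose (10.3%, CBL1, SnrK1 and cipk31) and 3 fell (10.3%, SnRK2.5, SnRK2.8 and MPK17-2), and 2 of the rises and none of the falls held with each library left out.

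Large changes among named genes also lay in other functions. The xyloglucan endotransglycosylase gene xet1, for an enzyme that remodels the cell wall, stood at 7.28, 16.5 and 20.6 in PbfRNAi, against 0.367, 0.494 and 0.408 in WT. The phosphoenolpyruvate carboxylase gene pep4 stood at 11.9, 14.1 and 14.1 in PbfRNAi, against 0.443, 0.652 and 0.612 in WT, and the terpene synthase gene tps10 at 20.3, 13.3 and 12 against 1.6, 0.714 and 0.467. All 3 lay at FPKM 2 or less in every WT library and at 7 or more in every PbfRNAi library (limma adjusted p = 0.00049, 1.1e-05 and 0.00028). The genes xet1 and pep4 met the filter through PbfRNAi alone, so their called difference is partly set by the filter. The ratio of means of tps10 was 16.4, and 25.8 without WT replicate 1. Among abundant genes, grp1, which encodes a glycine-rich protein, stood at 6151, 3810.3 and 5567 in PbfRNAi, against 1371, 849 and 1024 in WT (log2 2.26 ± 0.25; adjusted p = 0.00091, scaled 0.00099). The gene nbp35, whose yeast counterpart assembles iron-sulfur clusters, rose to 78.6, 58.4 and 68.5 in PbfRNAi, against 23.4, 19.5 and 21.7 in WT, and dedA to 29.7, 23.2 and 27.2 against 5.96, 6.17 and 6.22.

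Among the falls, a gene annotated as GTPase (GRMZM2G001953) stood at 1.67, 0.717 and 1.05 in PbfRNAi, against 25.8, 31.7 and 29.5 in WT (log2 −3.82 ± 0.18; limma adjusted p = 2.1e-05). The gene CAF1 stood at 1.83, 2.51 and 1.85 in PbfRNAi, against 10.9, 11.7 and 11.7 in WT, and Actin-7, an actin gene, at 21, 21.8 and 26.3 against 49.3, 54 and 54.9 (adjusted p = 7.6e-05 and 0.00068). HP1 stood at 6.37, 7.66 and 8.75 in PbfRNAi, against 15.2, 24.4 and 24.8 in WT (adjusted p = 0.0037). The groups did not overlap for any of the 4. Both tested BURP-domain genes fell, BURP7 to 7.15, 18.4 and 18.5 in PbfRNAi, against 41.1, 57.8 and 52.4 in WT (limma adjusted p = 0.0094), and BURP6 to a mean of 0.997 ± 0.452, against 3.19 ± 0.247 in WT (adjusted p = 0.0056).

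The most abundant starch genes did not pass, while 4 lower-level ones rose. Of 18 tested models 4 rose (22.2%) and none fell on both scales, with a median log2 fold change of 0.29 as deposited and 0.07 scaled. The sucrose synthase gene sh1 averaged 2158 ± 259 in PbfRNAi and 1753 ± 170.1 in WT (SD, n = 3 each), and the granule-bound starch synthase gene wx1 averaged 1777 ± 289 and 1462 ± 329. For the ADP-glucose pyrophosphorylase genes, which supply the glucosyl donor of starch, sh2 averaged 1752 ± 315 in PbfRNAi and 1542 ± 245 in WT, and bt2 866 ± 265 and 803 ± 139. None of these 4 passed on either scale, at limma adjusted p = 0.23, 0.39, 0.56 and 0.87 as deposited. The branching enzyme gene ae1 passed as deposited and with the replicate block, but not on both scales, at 772, 1002 and 954 in PbfRNAi and 516, 646 and 642 in WT (adjusted p = 0.039, scaled 0.2).

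The rises were those of pho1, for the plastidial starch phosphorylase, zpu1, for a pullulanase-type debranching enzyme, and Agp2 and AGPLS3, for further subunits of ADP-glucose pyrophosphorylase. The gene pho1 stood at 313, 344 and 309.9 in PbfRNAi, against 212, 162 and 153 in WT, and zpu1 at 52.9, 68.4 and 61.8 against 28.3, 36.1 and 35.3. Agp2 stood at 162, 171 and 171 in PbfRNAi, against 100.1, 113 and 109 in WT, and AGPLS3 at 9.1, 7.55 and 7.4 against 4.35, 2.43 and 2.98. The groups did not overlap for any of these 4 genes, and the larger limma adjusted p of the 2 scales was 0.015, 0.034, 0.04 and 0.0097. The call of AGPLS3 held with each library left out. The call of pho1 was lost without PbfRNAi replicate 2, WT replicate 2 or WT replicate 3 (adjusted p = 0.055 to 0.077), and those of zpu1 and Agp2 were lost without any 1 library other than PbfRNAi replicate 1 (0.062 to 0.11 and 0.082 to 0.12). The count of rises was thus 1 without PbfRNAi replicate 2, WT replicate 2 or WT replicate 3, and 2 without PbfRNAi replicate 3 or WT replicate 1.

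In central carbon metabolism 1 of 13 genes rose and 1 fell, which is 7.69% each way, against 2 rises and 1 fall with the replicate block. The enolase gene eno1 stood at 279, 225 and 225 in PbfRNAi, against 175, 108 and 106 in WT (limma adjusted p = 0.02, scaled 0.042). GPC1, for a glyceraldehyde 3-phosphate dehydrogenase of glycolysis, stood at 95.5, 82.1 and 93.2 in PbfRNAi, against 128, 119 and 120.4 in WT (adjusted p = 0.029, scaled 0.0038). Both were without overlap, and both calls were lost when most single libraries were left out. For eno1 that was any library other than WT replicate 1 (0.078 to 0.15), and for GPC1 any other than PbfRNAi replicate 1 (0.060 to 0.11).

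Of 6 tested genes of ammonium assimilation 3 rose (50%) and none fell, against 1 fall with the replicate block. The gene gln1 among them met the filter through PbfRNAi alone, and of the other 5 genes 2 rose. The glutamine synthetase gene gln4 stood at 26.9, 25.2 and 27.2 in PbfRNAi, against 13.9, 16.3 and 15.9 in WT, and gln1 at 2.11, 1.75 and 1.53 against 0.0808, 0.241 and 0.266. The glutamate dehydrogenase gene gdh1 stood at 6.79, 6.11 and 5.98 in PbfRNAi, against 1.49, 2.1 and 2.41 in WT. These were rises of 1.72-fold, 9.17-fold and 3.14-fold without overlap (limma adjusted p = 0.0031, 0.00072 and 0.001). The call of gln4 was lost without PbfRNAi replicate 2, PbfRNAi replicate 3, WT replicate 2 or WT replicate 3 (0.052 to 0.064). None of 5 genes of the aspartate family of amino acids passed on both scales in limma, although 2 did as deposited, 2 rose with the replicate block and 2 were higher at an unadjusted p under 0.05 on both scales. Among them lkrsdh1, for the enzyme that degrades lysine, stood at 119, 124 and 121 in PbfRNAi and 95.4, 127 and 120.4 in WT (adjusted p = 0.64).

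Of the 4 tested models of reserve proteins other than zeins only leg1 passed on both scales in the unblocked fit. The legumin gene leg1, for an 11S globulin, stood at FPKM 3926, 3235 and 2981 in PbfRNAi, against 1889, 1843 and 1751 in WT (log2 0.88 ± 0.16; limma adjusted p = 0.008, scaled 0.029). Its groups did not overlap, and the call was lost without PbfRNAi replicate 2 (adjusted p = 0.080), WT replicate 2 (0.093) or WT replicate 3 (0.12). The rises numbered 3 with the replicate block and 2 without PbfRNAi replicate 1. The vicilin-type globulin gene glb1 had 19.3, 66 and 77.7 in PbfRNAi and 5.89, 14 and 13.2 in WT, and passed as deposited but not scaled (adjusted p = 0.032, scaled 0.057). It passed on both scales with the replicate block and without PbfRNAi replicate 1 (0.0049). The globulin gene glb3 was not called, at 476, 620 and 625 in PbfRNAi and 815, 638 and 548 in WT (adjusted p = 0.48), and its groups overlapped.

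Of 15 tested defence and inhibitor genes 2 rose (13.3%) and 1 fell (6.67%), and with the replicate block 4 rose and 3 fell. There were 4 rises without PbfRNAi replicate 1, and without PbfRNAi replicate 3 none rose and 2 fell. MPI, the maize proteinase inhibitor gene, stood at 1389, 1085 and 1265 in PbfRNAi, against 717, 602 and 683 in WT (limma adjusted p = 0.006, scaled 0.015). The cystatin gene psei10, for an inhibitor of cysteine proteases, stood at 94.7, 84.4 and 125 in PbfRNAi, against 48.1, 19.2 and 15.3 in WT (adjusted p = 0.011, scaled 0.015). The groups did not overlap for either gene, and neither call held in every leave-out. MPI was lost without PbfRNAi replicate 3, WT replicate 2 or WT replicate 3 (0.058 to 0.081), and psei10 without PbfRNAi replicate 3 (0.057) or WT replicate 2 (0.056). The ratio of means of psei10, 3.68, was 5.88 without WT replicate 1. The pathogenesis-related gene PR10 fell to 0.606, 0.743 and 1.3, against 3.47, 3.09 and 2.8 in WT (adjusted p = 0.0029). The ribosome-inactivating protein gene rip1, a known target of O2, averaged 1036 ± 467 in PbfRNAi and 1749.5 ± 476 in WT and did not pass in the unblocked fit (adjusted p = 0.17), but fell with the replicate block.

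In a list of ribosomal protein genes drawn up after the values were seen, 9 of 34 tested genes rose (26.5%) and none fell, and 2 of the 9 calls held with each library left out. The other 25 did not pass on both scales, and the median log2 fold change was 0.62 as deposited and 0.40 scaled, against 0.17 and −0.01 over all genes. With the replicate block 15 rose. A shorter list of cytosolic ribosomal proteins shares members with it, and there 1 of 5 tested genes rose (20%), RPL10, against 4 as deposited alone, with a median of 0.51 as deposited and 0.29 scaled. The call of RPL10 was lost without PbfRNAi replicate 3, WT replicate 2 or WT replicate 3. The gene RPL19 of the large subunit stood at 251, 152 and 200.4 in PbfRNAi, against 107, 83.2 and 88.4 in WT. For the small subunit, rps24 stood at 83.4, 51.9 and 63.5 in PbfRNAi, against 32, 26.9 and 27.6 in WT, and rps13 at 45.2, 28.2 and 33.5 against 14.2, 13.7 and 13.4. These 3 were without overlap (limma adjusted p = 0.0083, 0.0043 and 0.0021), and the calls of rps24 and rps13, but not that of RPL19, held with each library left out. The count of rises was 4 without PbfRNAi replicate 3, 5 without WT replicate 1, 2 without WT replicate 2 and 3 without WT replicate 3. Of 11 translation factor genes 1 rose (9.09%), eif7, a call lost without PbfRNAi replicate 2 or 3 or WT replicate 2 or 3.

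Of 13 tested genes of tryptophan and auxin, in a list also drawn up after the values were seen, 4 rose (30.8%), 1 fell (7.69%) and 8 were not called. The median log2 fold change was 0.01 as deposited and −0.15 scaled, and 2 genes fell under the replicate block or without WT replicate 1. The gene orp1, for the beta subunit of tryptophan synthase, stood at 58, 41 and 45.3 in PbfRNAi, against 24.9, 14.6 and 14.5 in WT. TAR3, for a tryptophan aminotransferase of the first step from tryptophan to auxin, stood at 423, 323 and 411 in PbfRNAi, against 171, 158 and 171 in WT. The yuc gene (GRMZM2G091819), for a flavin monooxygenase of the following step, stood at 295, 312 and 353 in PbfRNAi, against 207, 171 and 176 in WT. Every PbfRNAi library exceeded every WT library in these 3 genes, by 2.67-fold, 2.31-fold and 1.73-fold as ratios of means (limma adjusted p = 0.0054, 0.0011 and 0.0058). The call of yuc was lost without PbfRNAi replicate 3 (0.060), WT replicate 2 (0.082) or WT replicate 3 (0.069). The gene iaglu, for a glucosyltransferase that conjugates indole-3-acetic acid, went the other way, at 30.4, 30.4 and 43 in PbfRNAi, against 84.9, 74 and 74.6 in WT (log2 −1.16 ± 0.16; adjusted p = 0.0023, scaled 0.00058). The carrier gene PIN5c rose at low levels, to a mean of 1.52 ± 0.344 in PbfRNAi, against 0.369 ± 0.153 in WT (adjusted p = 0.0062), and met the filter through PbfRNAi alone.

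Auxin response factors (ARFs), which bind the promoters of auxin-regulated genes, made up 13 of the 14 tested genes of the hormone list. In that list 4 rose (28.6%) and 1 fell (7.14%), and all 5 were ARFs. The median log2 fold change of the list was −0.12 as deposited and −0.27 scaled. ARF18 and ARF19 met the filter through PbfRNAi alone, and of the other 12 genes 2 rose and 1 fell. ARF17 stood at 9.71, 10.6 and 11.6 in PbfRNAi, against 5.07, 4.5 and 4.88 in WT, and ARF18 at 2.96, 3.56 and 3.41 against 0.626, 0.984 and 0.657. ARF19 had 2.86, 2.54 and 2.32 in PbfRNAi and 0.652, 0.232 and 0 in WT, the last of these listed at 0. ARF12 averaged 8.57 ± 1.21 in PbfRNAi and 4.08 ± 1.2 in WT. The fall was that of ARF13, at 16.9, 15.1 and 16 in PbfRNAi, against 23.9, 21.5 and 23 in WT (limma adjusted p = 0.001, 0.0006, 0.0017, 0.013 and 0.016 in the order named). The calls of ARF17, ARF18 and ARF19 held with each library left out. That of ARF12 was lost without any 1 library other than WT replicate 1 (0.052 to 0.093), and that of ARF13 without PbfRNAi replicate 2 or 3 or WT replicate 2 or 3 (0.053 to 0.074).

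**Figure D2:**
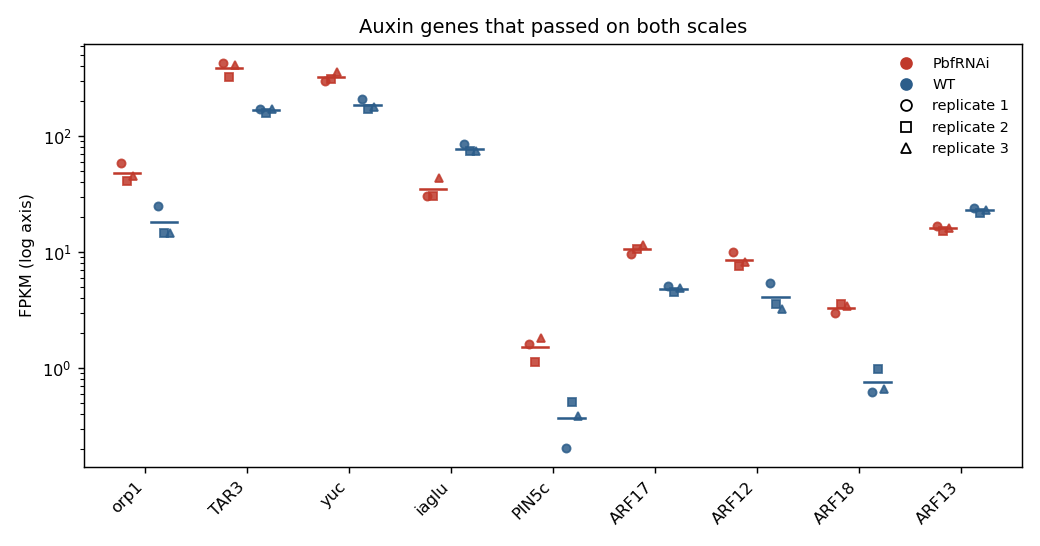
FPKM of 9 auxin genes that passed on both scales (log axis), with 3 PbfRNAi libraries (red, left) and 3 WT libraries (blue, right) per gene; symbols mark replicates and bars the means. Synthesis genes orp1, TAR3 and yuc lie higher in PbfRNAi, iaglu and ARF13 lie lower, and ARF19 is left out because 1 WT library is listed at 0.

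Genes of chromatin proteins changed about as often as other genes. In a list of 62 tested genes drawn up after the values were seen, 6 rose (9.68%) and 2 fell (3.23%). The fall of set105, of the SET-domain family to which histone methyltransferases belong, was the largest, at 23.6, 21.9 and 24.8 in PbfRNAi, against 64.6, 55.5 and 57.1 in WT (log2 −1.3 ± 0.11; limma adjusted p = 0.00028, scaled 7.0e-05). Among the rises, nfa101, of a nucleosome assembly family, stood at 35.4, 29.8 and 28.2 in PbfRNAi, against 16.7, 13.4 and 13.9 in WT, and HMGIY2, of the high-mobility-group proteins, at 41.3, 34.5 and 41.1 against 22.1, 16.6 and 16. The histone acetyltransferase gene hac108 averaged 6.09 ± 1.14 in PbfRNAi and 2.19 ± 0.174 in WT, and mbd101, for a methyl-CpG-binding domain protein, 6.94 ± 0.947 and 2.72 ± 0.499. None of these 5 had overlapping groups, and their calls held with each library left out. The second fall, of hmg3, was lost without PbfRNAi replicate 2, PbfRNAi replicate 3 or WT replicate 3 (0.054 to 0.066). None of 8 listed genes of RNA silencing, the pathway an RNAi construct uses, passed on both scales in limma, against 1 as deposited, 1 with the replicate block and 1 higher at an unadjusted p under 0.05 on both scales. That list was matched by gene symbol and did not hold the model named argonaute1 (GRMZM2G162525), which rose.

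Oxidative stress genes moved in both directions. Of 23 tested genes 3 rose (13%) and 4 fell (17.4%). The ascorbate peroxidase gene apx2 stood at 22.5, 16.2 and 20.6 in PbfRNAi, against 42, 41.5 and 47.6 in WT (log2 −1.11 ± 0.14; limma adjusted p = 0.0018). Of the glutathione S-transferase genes, gst31 stood at 11.5, 7.38 and 8.92 in PbfRNAi, against 36.8, 22.9 and 23.9 in WT, and gst6 at 6.68, 6.16 and 6.22 against 10.9, 11.4 and 12.2. GST3 rose, at a mean of 3.96 ± 0.872 in PbfRNAi and 1.29 ± 0.232 in WT. The 4 genes were without overlap and held with each library left out, and the count of rises was 1 without PbfRNAi replicate 2 or PbfRNAi replicate 3. In the cell wall list 1 of 19 genes rose and 1 fell (5.26% each), the rise being that of the cellulose synthase gene cesa8 and the fall that of the invertase gene mn1. The list was matched by gene symbol and did not hold xet1, which rose as described above. The rise of cesa8 was lost without any 1 library other than PbfRNAi replicate 1, and with the replicate block 3 rose and 2 fell. None of 12 histone and replication genes and none of 6 oil body and lipid genes passed on both scales in limma, against 1 higher and 1 lower at an unadjusted p under 0.05, and 1 oil body gene fell with the replicate block. Of 11 membrane traffic genes, in a list drawn up after the values were seen, 1 rose, copz2, of a vesicle coat, against 2 rises and 1 fall with the replicate block.

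**Figure D3:**
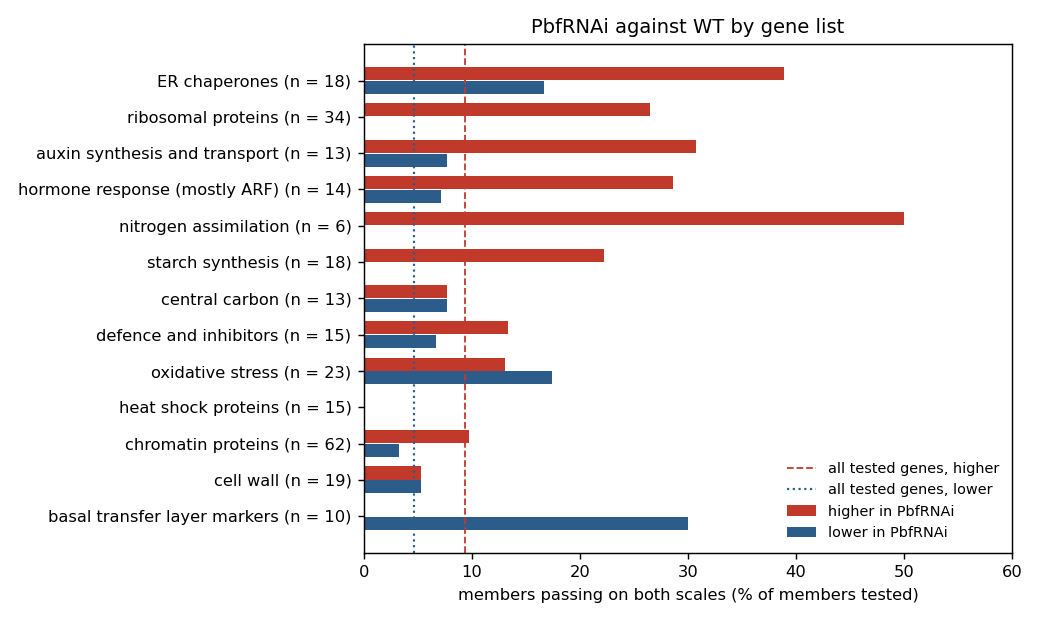
Share of tested members that passed on both scales in limma (%), higher (red) and lower (blue) in PbfRNAi, for 13 gene lists; the vertical lines mark 9.36% and 4.61% over all 15718 tested genes. The share of rises is 38.9% of 18 ER chaperones and 50% of 6 nitrogen assimilation genes, 1 of which met the filter through PbfRNAi alone; the share of falls is 30% of 10 transfer layer markers, and 0 of 15 heat shock protein genes passed either way.

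Of 10 tested markers of the basal endosperm transfer layer 3 fell in PbfRNAi (30%), none rose and 7 were not called, with a median log2 fold change of −1.01 as deposited and −1.18 scaled. With the replicate block, in which each PbfRNAi library is set against the WT library of its number, 9 of 10 fell. That pairing was not shown beyond replicate 1. The 13 matched marker models summed to FPKM 109.5, 311 and 277 in PbfRNAi, against 460.1, 660.2 and 588 in WT. Replicate 1 was the lowest library in each genotype, and the highest PbfRNAi sum was below the lowest WT sum. In bulk tissue, fewer cells of a type and less RNA per cell cannot be told apart.

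The gene betl-9 was the most abundant marker, at 42.5, 118 and 101 in PbfRNAi, against 243, 344 and 297 in WT (log2 −1.86 ± 0.36; limma adjusted p = 0.011). The gene betl4 stood at 3.47, 9.18 and 6.84 in PbfRNAi, against 23.4, 30.2 and 29.6 in WT (adjusted p = 0.0029), while mn1, for a cell wall invertase that splits incoming sucrose, stood at 2.2, 3.74 and 4.27 against 6.72, 11.1 and 10.9 (adjusted p = 0.011). The 3 calls held with each library left out, and the groups did not overlap. BETL1 was not called, at 12.1, 55.6 and 47.8 in PbfRNAi and 84.8, 112 and 106 in WT (adjusted p = 0.063, scaled 0.051), and passed without PbfRNAi replicate 1 (0.0066). The marker bap2 had 11.8, 39.9 and 35.2 in PbfRNAi and 17.3, 29.9 and 28 in WT (adjusted p = 0.93), and its groups overlapped. In PbfRNAi;o2 against o2 1 of the 10 markers was lower, BETL1, and none was higher. Without PbfRNAi;o2 replicate 1 BETL1 (log2 −1.69) and betl-9 (−0.59; larger limma adjusted p of the 2 scales 0.025) were lower and mn1 was higher (0.41; 0.019), while betl4 was not called (−0.03; 0.92). The defining regulator MRP1 stood at 0.407, 0.369 and 0.412 in PbfRNAi and 0.67, 0.5 and 0.391 in WT, too low to be tested, and ebe1 is listed at 0 in all 6 libraries. The sucrose transporter gene sut1 fell to 2.95, 1.76 and 1.88 in PbfRNAi, against 4.54, 5.22 and 5.08 in WT (adjusted p = 0.0078), the 1 change among 4 tested transporter genes.

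Other cell types gave fewer calls. The embryo surrounding region marker esr6, the 1 tested of 4, fell to 0.795, 1.49 and 1.89 in PbfRNAi, against 3.62, 5.83 and 4.01 in WT (limma adjusted p = 0.0087). The marker ESR1 (GRMZM2G315601), too low to be tested, stood at 0.262, 4.19 and 3.67 in PbfRNAi and 0.313, 0.426 and 0.605 in WT. The 4 matched markers summed to 1.17, 5.94 and 5.55 in PbfRNAi and 3.94, 6.26 and 4.62 in WT, and the sums overlapped. Aleurone markers summed to 228, 179 and 197 in PbfRNAi and 184, 176 and 173 in WT, and none of 5 passed in limma, with 0 at an unadjusted p under 0.05 on both scales. Embryo markers summed to 332, 468 and 645 in PbfRNAi and 356, 351 and 391 in WT, and none of 4 passed on both scales in limma, against 2 at an unadjusted p under 0.05, with lec1, kn1 and wus1 listed at 0 in all 6 libraries. With the replicate block 1 aleurone and 2 embryo markers rose, and 2 embryo markers also rose without PbfRNAi replicate 1. Of 10 tested starchy endosperm markers 2 fell (20%), pbf1 (GRMZM2G146283) and o2, and both calls held with each library left out. With the block 1 starchy endosperm marker rose as well, against none without it. The part that shares of these cell types had in other results was not tested.

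**Figure D4:**
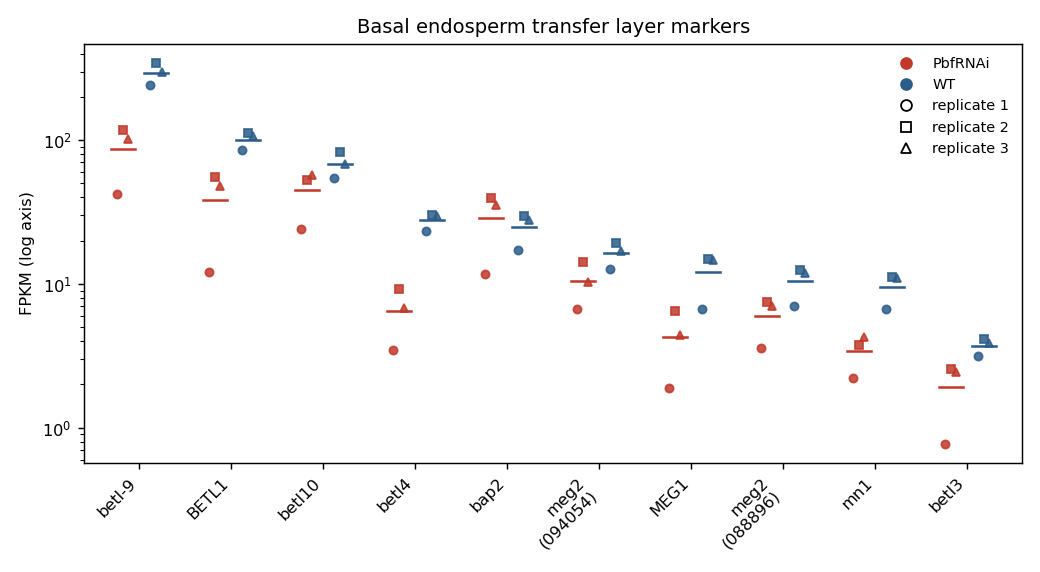
FPKM of the 10 tested markers of the basal endosperm transfer layer (log axis), with 3 PbfRNAi libraries (red, left) and 3 WT libraries (blue, right) per gene; symbols mark replicates and bars the means. Replicate 1 is lowest for every marker in both genotypes, and betl-9, betl4 and mn1 passed on both scales.

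Some models were near 0 in 1 genotype alone. With FPKM under 0.5 in all 3 libraries of 1 genotype and 5 or more in all 3 of the other, 14 models were near 0 in PbfRNAi and 42 near 0 in WT, the second count including the zein gz27. At a limit of 0.1 the counts were 10 and 28. None of the 14 has a name in the reference table, and of the 42 only xet1, gz27 and ris2 have one. The model GRMZM2G031572 stood at 0.124, 0.0467 and 0.0831 in PbfRNAi, against 63.8, 88.6 and 82.9 in WT, and GRMZM2G408834 is listed at 0 in PbfRNAi and stood at 35.7, 22.6 and 20.1 in WT. Near 0 in WT, GRMZM2G092758 stood at 30.9, 37.3 and 30.8 in PbfRNAi and is listed at 0 in the 3 WT libraries. The named gene ris2 likewise stood at 16, 10.1 and 10.9 in PbfRNAi and is listed at 0 in WT. GRMZM2G404688 stood at 68.6, 111 and 159.7 in PbfRNAi, against 0.23, 0 and 0.22 in WT, and at 431, 344 and 299 in PbfRNAi;o2, against 578, 468 and 397 in o2, so WT alone was near 0. Outside these counts, GRMZM2G046382 had the largest rise of the unnamed models picked by rule. It stood at 241, 215 and 257 in PbfRNAi, against 2.27, 0.525 and 0.584 in WT. In PbfRNAi;o2 it stood at 464, 301 and 335, against 1.31, 1.68 and 0.615 in o2. An exact 0 may be a failed estimate, and whether the sequence of these models differs between the lines was not tested. The pattern was split in the other 6 libraries. Of the 14, 4 were under 0.5 in all PbfRNAi;o2 libraries and 5 or more in all o2 libraries, and of the 42, 14 were 5 or more in PbfRNAi;o2 and under 0.5 in o2. Without PbfRNAi;o2 replicate 1 these counts were 6 and 15. Of the 14, 1 (GRMZM2G079127) was the reverse, at 5 or more in PbfRNAi;o2 and under 0.5 in o2. A further 3 of the 14 were at 5 or more in all PbfRNAi;o2 and o2 libraries, and neither count changed without PbfRNAi;o2 replicate 1. Another 10 of the 42, with or without that library, ris2 and GRMZM2G013248 among them, were under 0.5 in all of these libraries.

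The libraries in the opaque2 background measured the same step in separate samples. PbfRNAi;o2 replicate 1 stood apart from replicates 2 and 3 at several single genes. PDIL5-1 was at 61.5, 0.406 and 0.148 in PbfRNAi;o2, against 50.2, 54.7 and 55.1 in o2, and ohp1 at 0, 10.9 and 10.6 against 0, 0.0309 and 0.024. With all 6 libraries 1676 genes (10.7%) were higher and 950 (6.04%) lower on both scales, and 2302 and 1705 without PbfRNAi;o2 replicate 1. The counts were also 988 and 468 without PbfRNAi;o2 replicate 2, 924 and 451 without replicate 3, 888 and 410 without o2 replicate 2, and 902 and 432 without o2 replicate 3. Without o2 replicate 1, which also differed from its group at single genes, they were 1631 and 1346. The targeted gene pbf1 stood at 64.8, 58.7 and 54.9 in PbfRNAi;o2 and 242, 307 and 331 in o2 (log2 −2.27 ± 0.14; limma adjusted p = 6.8e-05). Its log2 change was larger by 1.13 than in PbfRNAi against WT, and the difference passed (limma over 12 libraries, adjusted p = 0.006), as it did without PbfRNAi;o2 replicate 1 (a log2 difference of −1.19, 0.0064).

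Of the 1471 genes that rose in PbfRNAi against WT, 590 (40.1%) also rose in PbfRNAi;o2 against o2, which is 35.2% of the 1676. Another 44 (2.99%) fell there, and 1181 (80.3%) had the same sign, against 55.7% of all tested genes with that sign. Of the 725 that fell, 283 (39%, and 29.8% of the 950) also fell, 30 (4.14%) rose, and 563 (77.7%) had the same sign, against 44.1% of all. Without PbfRNAi;o2 replicate 1 the shared calls were 683 and 348, with 77.6% and 77.5% of the same sign. The ER chaperones had 5 rises (bip1, bip2, PDIL1-2, PDIL2-3 and crt2) and no fall there, with bip1 at 359, 433 and 437 in PbfRNAi;o2, against 200.2, 136 and 133 in o2, and PDIL1-2 at 20.9, 38.1 and 38 against 2.96, 5.1 and 5.14 (limma adjusted p = 0.0019 and 0.00069). The call of PDIL2-3 was lost without PbfRNAi;o2 replicate 1 (0.056), while PDIL1-1 (0.013) and the fall of PDIL5-1 (1.7e-05) passed. The genes nbp35, dedA, orp1, pho1, AGPLS3, gln1, GST3, yuc and Agp2 also rose in both backgrounds, and GTPase, apx2, BURP7, esr6 and PR10 fell in both. Of these the call of esr6 in the opaque2 background was lost without PbfRNAi;o2 replicate 1 (0.064), and that of no other gene described here, beside PDIL2-3, was lost. In all, 11 genes gained there a call in the direction of their change against WT. Beside PDIL1-1 and PDIL5-1 these were the rises of ohp1 (3.8e-05), gdh1 (0.0056) and rps24 (0.012) and the falls of gst31 (0.0033), Actin-7 (0.0045), DOF36 (0.0091), gst6 (0.0093), betl-9 (0.025) and CAF1 (0.030). In the opposite direction, Hsf01 (0.041) and mn1 (0.019) gained a call as higher in PbfRNAi;o2, while both fell in PbfRNAi against WT.

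Other genes changed in the WT background and not in the same way in the o2 background. TCP7 fell there, at 5.08, 2.83 and 2.35 in PbfRNAi;o2 and 11.7, 8.57 and 7.8 in o2 (limma adjusted p = 0.012). It rose in PbfRNAi against WT, and the difference of the effects passed (adjusted p = 5.7e-05). The gene tps10, which rose in PbfRNAi against WT, is listed at 0 in all 3 PbfRNAi;o2 libraries and stood at 0.342, 0.589 and 0.605 in o2, too low in all 6 for a reading (difference of the effects, adjusted p = 1.1e-05). PDIL1-4 (GRMZM2G033829) stood at 9.65, 5.58 and 5.78 in PbfRNAi;o2 and 5.19, 4.98 and 5.47 in o2. The gene iaglu stood at 152, 137 and 152 in PbfRNAi;o2 and 127, 128 and 135 in o2, set105 at 77.2, 68.4 and 69.2 and 80.3, 80.5 and 81.1, and Hsf01 at 23, 21.7 and 21.3 and 15.8, 17.2 and 17.9. For each of these 4 the difference of the effects passed in limma over all 12 libraries (adjusted p = 8.6e-05, 0.00073, 0.0003 and 3.9e-05). That difference passed in 1370 (8.72%) of all tested genes, and in 1882 (12%) without PbfRNAi;o2 replicate 1, with 1276 in both counts. Without that library it still passed for TCP7, tps10 and these 4 genes. The named genes were picked for their change in PbfRNAi against WT, so a smaller change in the other background is partly set by the choice.

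**Figure D5:**
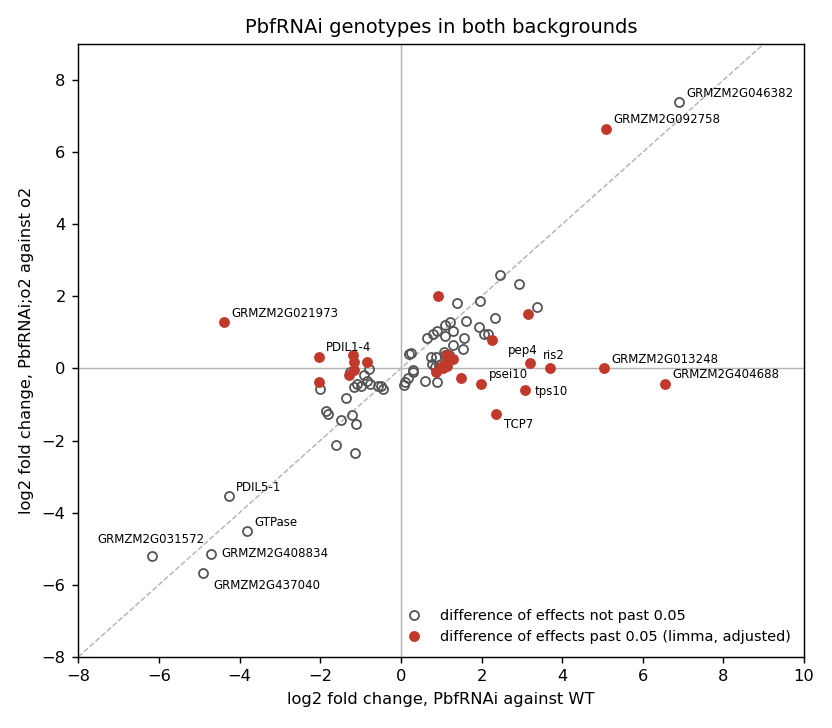
Log2 fold change on log2(FPKM + 1) of the genes described here, other than pbf1, in PbfRNAi against WT (x axis) and in PbfRNAi;o2 against o2 (y axis), with the line of equality dashed; filled points passed the test of the difference of the effects (limma adjusted p under 0.05). GRMZM2G092758, PDIL5-1 and GTPase lie near the line or beyond it, and ris2, pep4, tps10, TCP7 and GRMZM2G404688 lie near or below 0 on the y axis.

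Called genes were sometimes neighbours. Among 11333 tested genes with 1 position in the reference order, 165 runs of 2 or more adjacent tested genes moved the same way, and the longest held 6. That run, all rises, goes from GRMZM2G146599 to GRMZM2G066996, which is named Serpin-Z1. Another run of 4 rises begins with RPL10, a ribosomal protein gene. The order is that of another build than the one of the values, adjacent models can be parts of 1 gene, and whether such runs exceed what chance gives was not tested.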

How the data were processed

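Total RNA of endosperm was depleted of ribosomal RNA and sequenced as 125-nt paired reads, per the labels' protocols. The authors deposited 1 table of FPKM values for 12 libraries, made with TopHat, Bowtie2 and Cufflinks on B73 RefGen_v3, per the submitters' processing notes. Read counts and strandedness are not stated.

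Values were tested as log2(FPKM + 1) with limma 3.58.1 in R 4.3.3 (trend and robust estimation, Benjamini-Hochberg adjustment, threshold 0.05), as deposited and after median-of-ratios scaling, on the 15718 models with FPKM 1 or more in 3 of 6 libraries. PbfRNAi was set against WT on these 6 libraries alone, and PbfRNAi;o2 against o2 on the other 6. The difference of the 2 effects was fitted over all 12. Fits were tested on simulated data with known changes.

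The unblocked fit is the main one. The correlations of same-numbered deviations from the group means were 0.514, 0.325 and 0.399, all over 0.1. The replicate block, fitted as an alternative, takes the numbers to pair the samples, which is a reading of the data and not of the labels. Replicate 1 stood apart in both genotypes, and deviations from a group mean balance out within the group. A shared split of replicate 1 can thus make all of these correlations positive. They do not show that the other replicates pair by number. The replicate block is given where it changes a call or a count by over 1.5 times. Other alternatives were scaling factors, pseudocounts of 0.1 and 5, filters, plain variance estimation, all 12 libraries and each library left out.

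Names came from RefSeq (Zm-B73-REFERENCE-NAM-5.0), used for names and neighbour order. Of the tested models 11639 matched, 1610 with a name, and 344 matched more than 1 reference gene. Genes were named by rule: pbf1 and o2, the 15 largest rises and falls with a name, a mean of 10 or more in 1 genotype and no overlap of libraries, the most abundant list members, and the 4 largest each way without a name. The text describes fewer genes than the rule gave, and DBP2, a rise, and calmodulin, a fall, are among those left out. The members of the lists drawn up afterwards were chosen after their values were seen. The members and lists were chosen with earlier results of these data known.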

Additional observations from a re-analysis of the deposited data

Results flagged for a closer look

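Several genes described above differed between backgrounds. For each, the change in PbfRNAi;o2 against o2 minus that in PbfRNAi against WT was tested in limma over the 12 libraries, with Benjamini-Hochberg adjustment over all tested genes, and 1370 genes (8.72%) passed, 28 of them described above. Without PbfRNAi;o2 replicate 1, a setting added after seeing the data, 1882 genes (12%) passed and 26 of the 28 still did. The 2 lost were bip2 (−1.37, adjusted p = 0.057) and rps24 (−0.70, 0.064), and 7 described genes were gained. Most of these genes were chosen for their change in PbfRNAi against WT, so a difference toward 0 in the second contrast is partly set by the choice. The values are log2 differences of log2(FPKM + 1) as deposited, and no cause was tested.

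Genes that rose in PbfRNAi against WT had smaller or opposite changes in the opaque2 background. The differences were −3.71 for ris2 (adjusted p = 3.0e-07), −3.03 for pep4 (4.6e-07), −3.67 for tps10 (1.1e-05) and −3.63 for TCP7 (5.7e-05). They were −1.63 for bip2 (0.041), −1.47 for grp1 (0.01), −2.43 for psei10 (0.012) and −0.99 for leg1 (0.015). Among auxin response factors they were −1.77 for ARF19 (0.0099), −1.03 for ARF18 (0.0038) and −0.95 for ARF17 (0.031). For chromatin genes they were −0.96 for mbd101 (0.013), −1.09 for hac108 (0.0055) and −1.02 for nfa101 (0.0065), and for the ribosomal protein gene rps24 −0.78 (0.042). The unnamed models GRMZM2G404688 and GRMZM2G013248 differed by −6.98 (3.0e-07) and −5.04 (1.3e-09).

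Genes that fell in PbfRNAi against WT and fell less or not at all in the opaque2 background differed by 1.66 for CAF1 (adjusted p = 5.1e-05), 1.12 for set105 (0.0003), 1.54 for Hsf01 (3.9e-05), 1.13 for MADS11 (0.0057) and 1.34 for iaglu (0.00073). The PDIL1-4 models differed by 2.37 for GRMZM2G033829 (8.6e-05) and 1.0 for GRMZM2G034143 (0.0027). The unnamed model GRMZM2G021973 is listed at 0 in the PbfRNAi and the o2 libraries, so it could not fall in the opaque2 background. It was called higher there, at 0.569, 1.31 and 2.91 in PbfRNAi;o2 (log2 1.28 ± 0.3; limma adjusted p = 0.023, scaled 0.032). Its difference was 5.67 (2.1e-05).

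In 3 genes the change was larger in the opaque2 background. The fall of pbf1 differed by −1.13 (0.006). The rises of ARF12 and GRMZM2G092758 differed by 1.06 (adjusted p = 0.019) and 1.57 (0.0001).

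The 7 genes gained without PbfRNAi;o2 replicate 1 were PDIL5-1 (−1.15, adjusted p = 0.0019), PR10 (−1.71, 0.015), HMGIY2 (−0.79, 0.030), betl4 (1.98, 0.0086), mn1 (1.68, 0.0043), sut1 (0.81, 0.030) and rip1 (2.45, 0.013). Of these PDIL5-1 is the model GRMZM2G443655, and with all 12 libraries its difference was 0.72 (0.84).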

How the results depend on the processing

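In PbfRNAi against WT no called change of a gene followed by name reversed direction under any alternative that was run. Over these genes and alternatives 1475 values kept their call, 64 lost it and 12 gained it. The comparison of PbfRNAi;o2 with o2 was not in this count, and signs did change there. Without PbfRNAi;o2 replicate 1 the log2 fold change of mn1 went from −0.09 to 0.41 and that of rip1 from −0.34 to 1.61. The difference of the effects of PDIL5-1 (GRMZM2G443655) went from 0.72 to −1.15 without that library. A filter at FPKM 5 gave 912 rises and 381 falls on both scales (1752 and 381 as deposited, 912 and 690 scaled), with fewer genes tested. The replicate block, whose pairing by number was not shown beyond replicate 1, gave 2412 and 1230 (4516 and 1230 as deposited, 2412 and 2231 scaled). On both scales the block lost 1 of the 1471 rises and 1 of the 725 falls, so nearly all of its change lay in added calls. Without replicate 1 of both genotypes the counts were 2706 and 1290 (5141 and 1290 as deposited, 2706 and 2742 scaled). Leaving out 1 library gave 867 to 1528 rises and 434 to 743 falls on both scales, 1300 to 2982 and 434 to 743 as deposited, and 867 to 1528 and 640 to 1280 scaled. In PbfRNAi;o2 against o2 it gave 888 to 2302 and 410 to 1705. Models near 0 in 1 genotype numbered 10 and 28 at a limit of 0.1. The setting without PbfRNAi;o2 replicate 1 was added after seeing the data for genes called in both backgrounds (683 and 348), for the difference of the effects (1882 genes, against 1370), for list members called in the opaque2 background and for models near 0 in 1 genotype. Unless stated, the cause of these shifts was not tested. The planned search for promoter motifs was not run. Read depth is unknown, so no counting interval can be given for low FPKM values, and log2(FPKM + 1) understates the change of low genes.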
